A study of Mus musculus with 6 samples.

Results

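The Hedgehog pathway genes described here are Ihh, its receptor and co-receptor genes Ptch1, Gas1 and Boc, the Hedgehog-binding antagonist Hhip, the signal transducer Smo and the transcription factors Gli1, Gli2 and Gli3. They are 9 of 55401 genes in a read count table and were taken by symbol, but the list was selected on earlier results of these libraries, the fold changes and p-values of CKO against CTRL. The differences below are therefore a description and support no claim about the pathway. All 9 passed the filter on low counts that left 16260 genes. Mice were 10 weeks old, and their knee articular cartilage, labelled as native articular chondrocytes, gave RNA for 3 wild-type libraries (CTRL1 to CTRL3) and 3 adseverin knockout libraries (CKO1 to CKO3). Both groups had been given tamoxifen on 5 consecutive days from 8 weeks of age, at 1.5 mg per 10 g body weight, so the drug is common to controls and knockouts. The sources used here do not give the Cre driver, the deleted exons or whether each library came from a separate mouse, and the p-values below measure the spread between libraries, which may be partly technical.

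In Hedgehog signalling a secreted ligand binds Patched, the receptor encoded by Ptch1, and relieves its block on Smoothened, the membrane protein encoded by Smo. Smoothened then acts through the primary cilium to change the processing and activity of the GLI transcription factors. Gas1 and Boc encode cell surface proteins that help ligand bind. Ptch1, Hhip and Gli1 are themselves GLI targets, and the Ptch1 and Hhip proteins limit the signal. In cartilage the ligand is Indian hedgehog, made by prehypertrophic chondrocytes of the growth plate, where it controls proliferation and, through parathyroid hormone-related protein (PTHrP, Pthlh), the onset of hypertrophy.

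The upstream sequences of Ihh, Ptch1 and Hhip are shown because these are the ligand, receptor and antagonist genes with higher values in all 3 CKO libraries. Each is the 250 bases before the RefSeq start site on GRCm38.p6, read on the gene's minus strand, 5′ to 3′, with matches to the GC box, GGGCGG or CCGCCC, in capitals.
Ihh, chr1:74951673-74951922: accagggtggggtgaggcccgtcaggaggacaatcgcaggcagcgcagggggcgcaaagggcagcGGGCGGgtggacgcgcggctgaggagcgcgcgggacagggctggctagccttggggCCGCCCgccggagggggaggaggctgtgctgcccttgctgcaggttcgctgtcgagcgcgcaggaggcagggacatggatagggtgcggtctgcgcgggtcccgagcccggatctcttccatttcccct
Ptch1, chr13:63565736-63565985: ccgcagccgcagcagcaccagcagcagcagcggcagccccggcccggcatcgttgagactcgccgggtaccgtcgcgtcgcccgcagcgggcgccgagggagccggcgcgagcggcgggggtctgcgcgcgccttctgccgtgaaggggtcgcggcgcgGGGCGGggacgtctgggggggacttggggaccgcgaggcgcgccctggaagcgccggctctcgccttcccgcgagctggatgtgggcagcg
Hhip, chr8:80058009-80058258: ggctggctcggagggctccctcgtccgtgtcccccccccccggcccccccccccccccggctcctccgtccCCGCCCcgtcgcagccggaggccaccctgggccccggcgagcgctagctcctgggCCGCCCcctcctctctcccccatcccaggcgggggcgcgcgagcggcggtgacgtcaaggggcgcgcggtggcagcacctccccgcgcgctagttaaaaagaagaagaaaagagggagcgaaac
None of these bases lies in an annotated exon, but the Ptch1 stretch falls inside the longer GENCODE gene, whose start lies further upstream. RefSeq windows of 300 bases, from 250 before to 50 after the start, were found for 7 of the 9 genes, all but Gli1 and Boc. Their GC content ran from 62.3% for Gas1 to 76.3% for Ptch1, against a median of 60% over 14507 windows of tested genes. A GC box was present in 6 of the 7 windows, all but that of Smo, and in 59.3% of the windows of tested genes. The GLI consensus GACCACCCA was in 0 of the 7 on either strand and in 0.179% of the windows of tested genes, and its shorter form CCACCCA was in 0 of the 7 and in 9.77%. These letters are therefore not in these windows, which says nothing about GLI binding elsewhere.

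All 6 libraries held 22664828 to 31014996 reads. Scin, which encodes adseverin, measured 185 to 219 CPM (library-size-scaled read counts with TMM factors) in CTRL and 29.4 to 39.1 CPM in CKO, so each library matched its label. Of the 16260 genes, 1 passed a Benjamini-Hochberg adjusted p of 0.05 in edgeR, which is Scin. All 12 chondrocyte markers were detected, and their summed level was 49200 to 52400 CPM in CTRL and 53800 to 60200 CPM in CKO. Summed fibroblast markers ran from 3380 to 3770 CPM in CTRL and from 1820 to 3260 CPM in CKO. Superficial zone markers ran from 29200 to 33800 CPM in CTRL and from 26600 to 28100 CPM in CKO. The chondrocyte, fibroblast and superficial zone sums did not overlap between the groups. Their part in the results below was not tested beyond the scaling and ratios given. Cilp, at 21661 CPM in CTRL, made up most of the superficial zone sum and overlapped between the groups (20331 CPM in CKO2, 19902 CPM in CTRL3). That sum is therefore mainly a reading of Cilp, and nothing is read from it about the zone. The 4 markers in the sum did not share a direction. Clu was lower and Abi3bp higher in every CKO library, and Prg4 had a log2 fold change of -0.0089. The sums overlapped for hypertrophic chondrocytes (31400 to 36300 CPM in CTRL, 32400 to 38800 CPM in CKO), osteoblasts and osteocytes (9470 to 13900 and 8410 to 15200 CPM) and macrophages (704 to 954 and 534 to 736 CPM). Those for neutrophils (1090 to 1930 and 1300 to 2710 CPM), erythroid cells (2760 to 3100 and 2900 to 4410 CPM), osteoclasts (829 to 1960 and 805 to 1540 CPM), adipocytes (22 to 163 and 19.7 to 32.7 CPM), endothelium (48.1 to 78.4 and 37.2 to 74 CPM), pericytes and smooth muscle (209 to 338 and 261 to 299 CPM), and Schwann cells (9.92 to 21.1 and 8.62 to 14.5 CPM) overlapped too. Ibsp, at 24417 CPM in CTRL, made up most of the hypertrophic chondrocyte sum. Of the 6 markers in that sum 2 had a log2 fold change above 0 and 4 below. Mmp13 was at -1.01, with overlapping groups. The skeletal muscle sum reached 1490 CPM in CTRL2 against 15.7 to 232 CPM in the other 5 libraries, and Lep, an adipocyte marker, was at 0 in every library. The 5 sex-linked genes summed to 201 to 244 CPM in CTRL and 220 to 240 CPM in CKO. Xist had 4 reads over all libraries together, and the Y-linked genes Ddx3y, Eif2s3y, Kdm5d and Uty were detected in every library.

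The Hedgehog genes differed widely in level per length of transcript, with Gas1 at the top and the Gli genes at the bottom. On the scale of CPM per kilobase of exon, the CTRL libraries had Gas1 at 239 ± 31.8, Ihh at 36.4 ± 6.14, Boc at 32.9 ± 4.51, Smo at 22.1 ± 1.2 and Hhip at 14.95 ± 0.438 (SD, n = 3 per group throughout). Ptch1 followed at 7.52 ± 0.723, then Gli2 at 3.83 ± 0.137, Gli3 at 2.94 ± 0.646 and Gli1 at 2.24 ± 0.279. Gas1 stood at the 99.1st percentile of tested genes over all libraries, Ihh at the 93.9th and Gli1 at the 46.4th. In CTRL the neighbours Ihh and Boc overlapped, as did Gli3 and Gli1, and the other neighbours in this order did not. In CKO Ihh, at 46.8 to 57.9, no longer overlapped Boc, at 35.5 to 41.8, while Hhip, at 21.04 to 22.37, lay within the range of Smo, at 20.4 to 22.6. The 3 Gli genes overlapped one another in CKO.

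**Figure D1:**
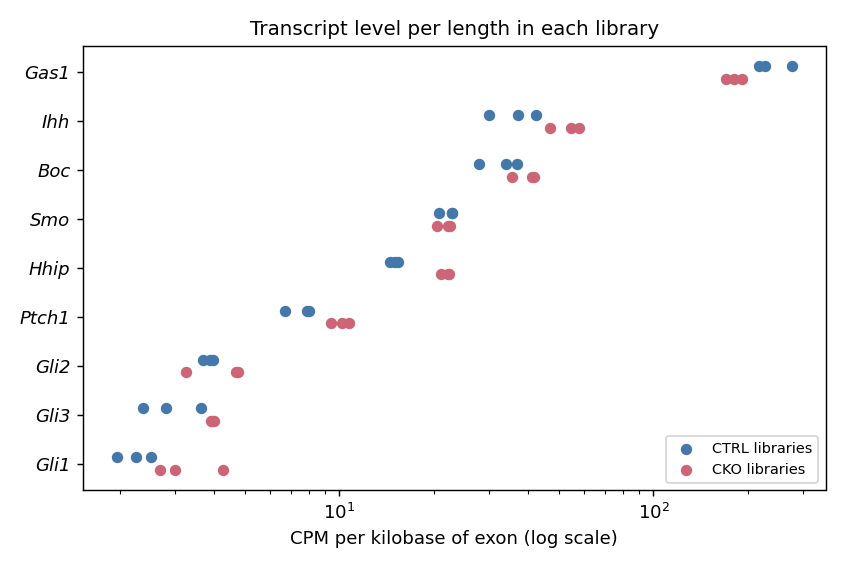
Level of each Hedgehog gene in CPM per kilobase of exon (log axis), 1 point per library, CTRL in blue and CKO in red. Gas1 was the most abundant at 170 to 276 and Gli1, Gli2 and Gli3 the least; Hhip lay below Smo in CTRL and within the range of Smo in CKO.

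CKO was compared with CTRL for effects of adseverin loss on the cartilage transcriptome. Across the 9 genes the ligand, receptor and antagonist genes Ihh, Ptch1 and Hhip and the factors Gli1 and Gli3 had higher values in every CKO library than in any CTRL library, by 1.34-fold to 1.48-fold. The co-receptor gene Gas1 had lower values in every CKO library, at 75.4% of the CTRL level, and Boc, Smo and Gli2 overlapped. None of the 9 passed an adjusted p of 0.05 in edgeR, where 0.00615% of all genes did, so no gene of the pathway was called. Values that did not overlap between groups, 5 higher and 1 lower among the 9, were found in 6.41% and 5.89% of all tested genes; since the list was proposed from this contrast, nothing is read from these shares. At an unadjusted p under 0.05 in edgeR, 5 were higher and 1 lower, against 3.54% and 2.96% of all genes (6.5% in either direction). The median log2 fold change (CKO minus CTRL) of the 9 was 0.42, and that of all genes 0.0037. Fewer cells of a type and less RNA per cell cannot be told apart in bulk tissue.

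**Figure D2:**
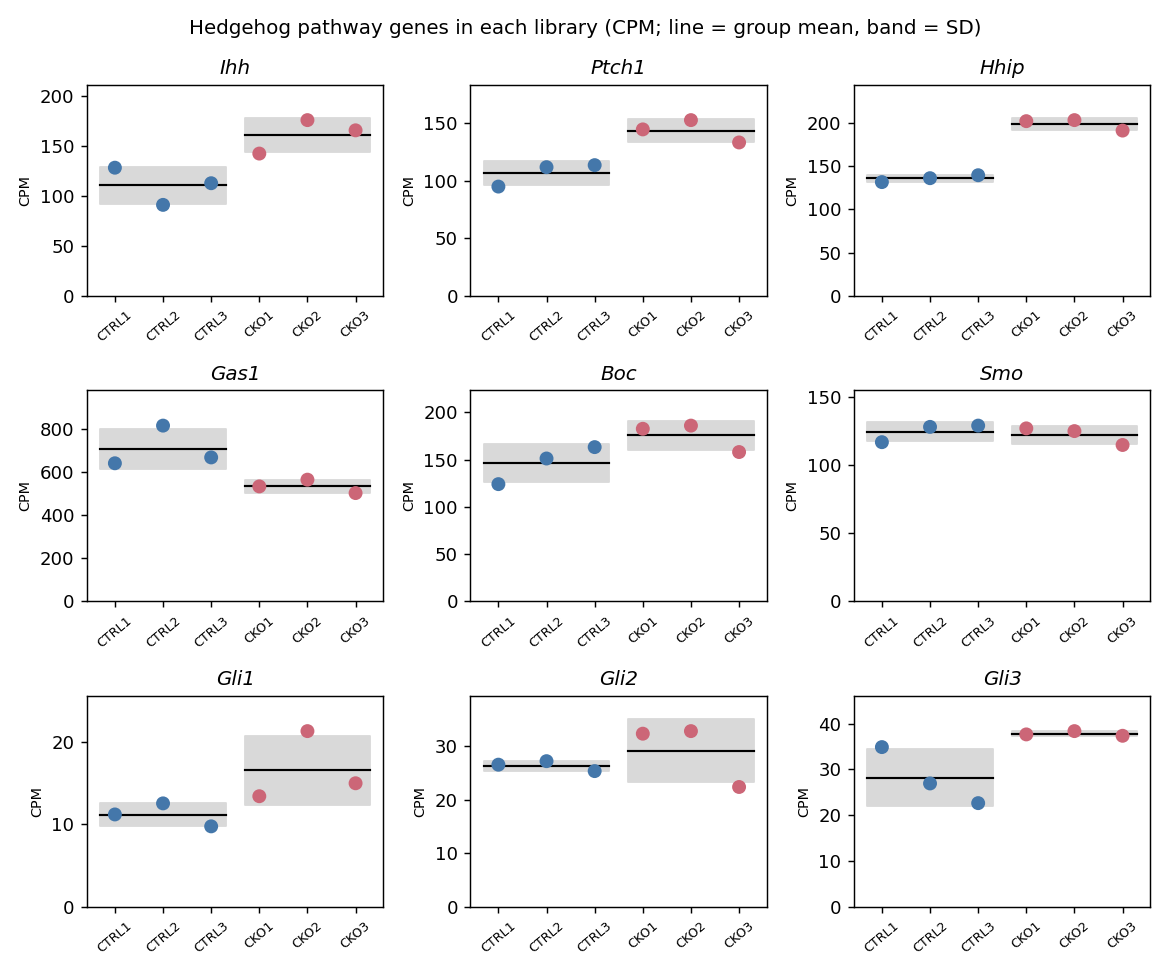
CPM of each Hedgehog gene in each library, with blue points for CTRL, red for CKO, lines at group means and grey bands of 1 SD; every axis starts at 0. Hhip formed 2 tight groups (131.5 to 139 and 191 to 203 CPM), Gas1 was lower in CKO, and Smo, Gli2 and Boc overlapped.

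Ihh (ENSMUSG00000006538.12, GRCm38 chromosome 1, 74945315 to 74951672, minus strand) encodes Indian hedgehog. It measured 129, 91.3 and 113 CPM in CTRL1 to CTRL3 and 143, 176 and 166 CPM in CKO1 to CKO3. The groups did not overlap, although the lowest CKO library lay 14.2 CPM above the highest CTRL library and the CTRL libraries themselves differed by 40.8%. The log2 fold change was 0.54 ± 0.14 (SE; 95% interval 0.23 to 0.86; edgeR adjusted p = 0.605), and it was 0.41 without CTRL2 and 0.66 without CTRL1. Col10a1, the collagen of hypertrophic cartilage, measured 2916 to 3528 CPM in CTRL and 3117 to 3829 CPM in CKO. The CPM ratio of Ihh to Col10a1 was 0.0259 to 0.0388 in CTRL and 0.0458 to 0.0527 in CKO. This ratio was chosen after the values were seen. Ihh already separated the groups and Col10a1 had a log2 fold change of 0.02, so nothing is read from its separation.

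Ptch1 (ENSMUSG00000021466.12, chromosome 13, 63508328 to 63573598, minus strand), the receptor gene, measured 94.9, 112 and 113 CPM in CTRL and 144, 153 and 133 CPM in CKO. The groups were 19.7 CPM apart, with CTRL1 the lowest library and CKO2 the highest. The log2 fold change was 0.43 ± 0.10 (95% interval 0.20 to 0.66; edgeR adjusted p = 0.605).

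Hhip (ENSMUSG00000064325.4, chromosome 8, 79965851 to 80058006, minus strand) encodes a membrane-anchored and secreted protein that binds Hedgehog ligands. It measured 131.5, 136 and 139 CPM in CTRL and 202, 203 and 191 CPM in CKO. Within each group the libraries were close, 6.02% apart in CTRL and 6.32% in CKO, and the gap between the groups was 51.6 CPM. Its log2 fold change of 0.55 ± 0.07 (95% interval 0.38 to 0.72) corresponds to 1.46-fold and had the third smallest p of all genes tested. The edgeR adjusted p was 0.268. DESeq2, which the submitters also list among their tools, gave an adjusted p of 2.37e-06 for Hhip, 0.0452 for Ihh, 0.049 for Gas1 and 0.0565 for Ptch1, so 3 of the 9 passed there, where 0.538% of genes with an adjusted p did.

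The co-receptor genes differed from each other in direction. Gas1 (ENSMUSG00000052957.8, chromosome 13, 60174405 to 60177365, minus strand), which encodes a membrane-anchored Hedgehog-binding protein, measured 641, 816 and 668 CPM in CTRL and 534, 565 and 503 CPM in CKO. CTRL2 was the highest library, and every CKO library lay below every CTRL library. Its log2 fold change was -0.41 ± 0.11 (95% interval -0.65 to -0.17; edgeR adjusted p = 0.605), and -0.30 without CTRL2. Summed fibroblast markers were also lower in every CKO library, and all 8 had a log2 fold change below 0, with a median of -0.50. Of the 8, only Thy1, at 0.94 CPM in CTRL, was lower without overlap between groups. Col3a1, at 2219 CPM in CTRL, made up most of the sum and overlapped. The CPM ratio of Gas1 to the geometric mean of the 8 was 14.8, 15.2 and 19.1 in CTRL and 22.9, 14.5 and 15.9 in CKO. These ratios overlapped and were chosen after the values were seen. The geometric mean weights Thy1 as much as Col3a1, so nothing is read from that overlap. Boc (ENSMUSG00000022687.12, chromosome 16, 44485049 to 44558897, minus strand), an immunoglobulin superfamily co-receptor gene, measured 124, 151 and 163 CPM in CTRL and 183, 186 and 158 CPM in CKO. CKO3 lay below CTRL3, so the groups overlapped, and the log2 fold change was 0.26 ± 0.12 (95% interval -0.0073 to 0.54). It was 0.15 without CTRL1. The CPM ratio of Gas1 to Boc was 4.09 to 5.4 in CTRL and 2.92 to 3.18 in CKO, also set side by side after the values were seen. Gas1 already separated the groups and Boc was fitted in the other direction, so nothing is read from the separation of this ratio.

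Smo (ENSMUSG00000001761.7, chromosome 6, 29735503 to 29761365, plus strand), the transducer gene, had the smallest difference of the 9 with TMM scaling (-0.03, but -0.23 with scaling to chondrocyte markers). It measured 117, 128 and 129 CPM in CTRL and 127, 125 and 115 CPM in CKO. Its log2 fold change was -0.03 ± 0.09, with a 95% interval of -0.22 to 0.17. Within each library, the CPM ratio of Ptch1 to Smo was 0.813 to 0.881 in CTRL and 1.14 to 1.22 in CKO. That of Hhip to Smo was 1.06 to 1.13 in CTRL and 1.59 to 1.67 in CKO. Both ratios were chosen after the values were seen. Ptch1 and Hhip already separated the groups and Smo differed little, so nothing is read from the separation of the ratios.

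The Gli genes had the lowest counts and the widest intervals. Gli1 (ENSMUSG00000025407.7, chromosome 10, 127329882 to 127341974, minus strand), an activator and a target of the pathway, measured 11.2, 12.5 and 9.77 CPM in CTRL and 13.4, 21.3 and 14.98 CPM in CKO. The groups were 0.866 CPM apart and CKO2 stood above the rest. The log2 fold change was 0.57 ± 0.22 (95% interval 0.07 to 1.07; edgeR adjusted p = 0.715) and was 0.35 without CKO2. Gli1 shares 62 exon bases with Arhgap9 and 265 with Gm47200, both on the other strand. Over all libraries Arhgap9 had 2464 reads and Gm47200 had 0, against 2166 for Gli1. The counting is not stated to use strand, so the reads of Gli1 are partly uncertain. Gli3 (ENSMUSG00000021318.15, chromosome 13, 15463235 to 15730026, plus strand), mainly a repressor when no ligand is present, measured 34.9, 26.9 and 22.6 CPM in CTRL and 37.6, 38.4 and 37.3 CPM in CKO. The CTRL libraries differed by 54% and the CKO libraries by 2.73%, and the log2 fold change was 0.42 ± 0.17 (95% interval 0.05 to 0.80; edgeR adjusted p = 0.715). Gli2 (ENSMUSG00000048402.14, chromosome 1, 118834132 to 119053619, minus strand), the main activator acting before Gli1, measured 26.5, 27.2 and 25.3 CPM in CTRL and 32.3, 32.8 and 22.3 CPM in CKO. CKO3 was its lowest library of all, and the log2 fold change of 0.15 ± 0.17 (95% interval -0.24 to 0.53) was 0.31 without CKO3, 0.053 without CKO2 and 0.069 without CKO1. Gli3 shares 188 exon bases with Gm6556 and Gas1 589 with Gm48488, both on the other strand and with 170 and 378 reads over all libraries against 5097 for Gli3 and 95455 for Gas1.

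**Figure D3:**
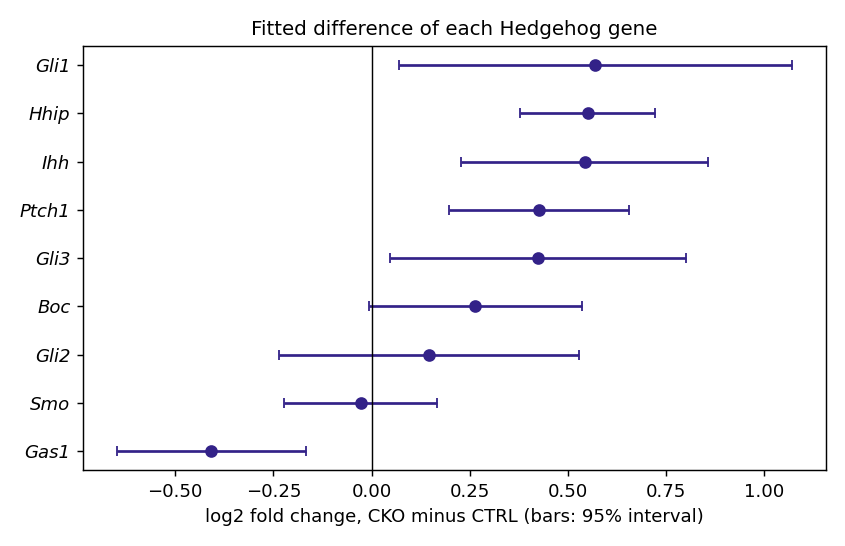
Log2 fold change (CKO minus CTRL) of each Hedgehog gene with its 95% interval from the edgeR fit. Hhip had a narrow interval from 0.38 to 0.72, Gas1 lay below 0, and the intervals of Smo, Gli2 and Boc crossed 0.

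Chondrocyte markers lay higher in the same libraries as several of these genes. From lowest to highest, Hhip, Ptch1 and the summed chondrocyte markers all ordered the libraries as CTRL1, CTRL2, CTRL3, CKO3, CKO1 and CKO2, an order noticed after the values were seen. Chad and Col2a1, at 22829 and 14841 CPM in CTRL, made up most of that sum. Of the 12 markers 11 had a log2 fold change above 0, and the median of all 12 was 0.21. Acan, the exception, was lower in every CKO library, with a log2 fold change of -0.61 (edgeR adjusted p = 0.535). Matn1 and Matn3, at only 2.34 and 3.78 CPM in CTRL, had log2 fold changes of 0.50 and 0.66, with overlapping groups. The geometric mean used below weights all 12 equally, so these low-count genes count as much as Chad and Col2a1. With libraries scaled to the geometric mean of these markers the median of all genes shifted by -0.20, and on that scale Hhip had a log2 fold change of 0.35, Ihh 0.33, Ptch1 0.23, Gli1 0.35, Gli3 0.21, Boc 0.068, Smo -0.23 and Gas1 -0.61, while Gli2 turned to -0.055. The CPM ratios to the markers were also chosen after the values were seen. For Hhip the ratio was 0.205 to 0.216 in CTRL and 0.253 to 0.297 in CKO. For Ptch1 it was 0.156 to 0.172 and 0.178 to 0.213, and for Ihh 0.138 to 0.211 and 0.21 to 0.222, which overlapped. On that scale none of the 9 passed; the edgeR adjusted p was 0.334 for Hhip and 0.416 for Ptch1.

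The other genes of the pathway were read from 6 further lists. Of 91 listed genes 87 were tested, and 0 passed an adjusted p of 0.05 in edgeR; 7 were higher and 2 lower at an unadjusted p under 0.05, together 10.3% of the 87 against 6.5% of all tested genes. DESeq2 passed 0 of them, and 1, Mef2c, when run on the genes of the edgeR filter. Values of 9 genes were higher and of 4 lower without overlap, 14.9% of the 87 against 12.3% of all tested genes, and the median log2 fold change was 0.054. Nothing is read from these shares for the pathway.

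Among genes for other ligands and for ligand release, 0 of 6 tested had an unadjusted p under 0.05. Shh was listed at 0 reads in every library, and Dhh measured 0.5 ± 0.366 CPM in CTRL and 0.362 ± 0.491 CPM in CKO. Scube1, which encodes a secreted protein of the family that helps release Hedgehog, measured 344 ± 10.3 CPM in CTRL and 426 ± 87.7 CPM in CKO, with CKO3 at 341 CPM within the CTRL range. Disp1, needed for ligand release, measured 38.8 ± 2.49 and 37.0 ± 4.88 CPM, and Scube2 3.55 ± 2.26 and 1.26 ± 1.59 CPM. Cdon, the paralogue of Boc, measured 109 ± 19.8 and 109 ± 7.83 CPM with a log2 fold change of -0.0045 ± 0.13.

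Of 24 regulators of Smo and GLI, 13 lay above 0 and 11 below, with a median of 0.042. Prkacb, a catalytic subunit of protein kinase A, which phosphorylates GLI proteins, measured 120 ± 8.88 CPM in CTRL and 101 ± 4.93 CPM in CKO. Gsk3b, another kinase of GLI processing, measured 67.9 ± 2.42 and 78.0 ± 0.784 CPM, and Efcab7, which anchors the ciliary EVC complex, 3.42 ± 0.409 and 5.34 ± 0.819 CPM. The groups did not overlap for these 3, and their edgeR adjusted p-values were 0.704, 0.747 and 0.777. The most abundant per length, the ubiquitin ligase genes Spop and Cul1, had log2 fold changes of 0.06 ± 0.09 and -0.04 ± 0.10.

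Of 28 primary cilium genes, 21 lay above 0 and 7 below, with a median of 0.12; of all genes 8229 lay above and 8031 below. Inpp5e, a ciliary phosphoinositide phosphatase, measured 19.4 ± 0.768 CPM in CTRL and 27.9 ± 2.57 CPM in CKO. Ift80, an intraflagellar transport gene, measured 34.8 ± 2.6 and 49.0 ± 8.38 CPM, and Arl13b, a ciliary GTPase gene, 18.5 ± 3.2 and 24.5 ± 1.22 CPM. These 3 did not overlap between the groups, and their edgeR adjusted p-values were 0.605, 0.658 and 0.724. The most abundant per length, Ift57 and Ift74, had log2 fold changes of 0.09 ± 0.13 and 0.12 ± 0.15.

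The 14 tested genes of other reported GLI targets were mixed, 9 above 0 and 5 below, with a median of 0.061. Foxd1, a forkhead factor gene, measured 26.0 ± 1.39 CPM in CTRL and 18.1 ± 1.44 CPM in CKO, opposite in sign to Ptch1 and Hhip. Bcl2, a survival gene, measured 105 ± 5.58 and 125 ± 4.81 CPM, and Bmp4, a growth factor gene, 16.6 ± 1.01 and 12.4 ± 3.4 CPM. The edgeR adjusted p-values were 0.605, 0.694 and 0.812. Ccnd2 and Rab34, the most abundant per length, had log2 fold changes of 0.17 ± 0.10 and 0.04 ± 0.12.

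In the PTHrP loop, Pthlh measured 31.7 ± 6.99 CPM in CTRL and 32.6 ± 2.75 CPM in CKO, and its receptor gene Pth1r 366 ± 31.6 and 353 ± 21.5 CPM. Mef2c and Foxa2, transcription factors of chondrocyte hypertrophy, had higher values in every CKO library. Mef2c measured 529, 459 and 503 CPM in CTRL and 638, 584 and 670 CPM in CKO, and Foxa2 14.7, 10.7 and 13.4 CPM and 19.2, 20.5 and 20.6 CPM. Their edgeR adjusted p-values were 0.605 and 0.611. Runx3 measured 5.26 ± 0.878 and 3.38 ± 1.07 CPM, and the list of 13 had a median of 0.017.

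**Figure D4:**
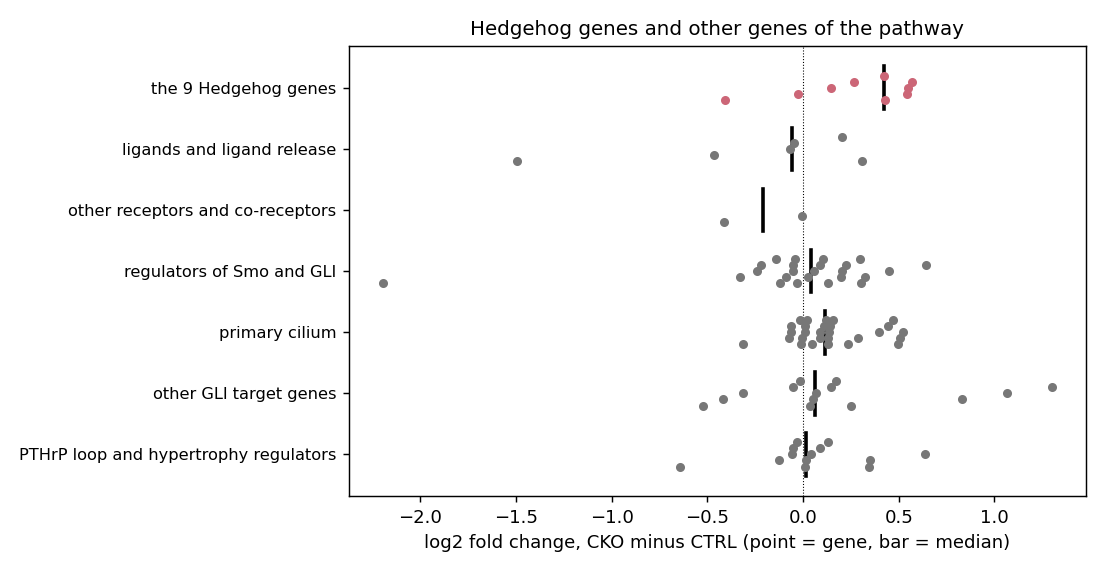
Log2 fold change (CKO minus CTRL) of each tested gene of the 9 Hedgehog genes (red) and of 6 other pathway lists (grey), with a black bar at each median. The 9 genes have a median of 0.42, and the other lists, of 2 to 28 genes each, have medians from -0.21 to 0.12.

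The genes with the profiles most like Ihh, Ptch1 and Hhip were found by the root mean square difference of log2 CPM, centred per gene, over the 6 libraries, among 9092 others with a mean of at least 10 CPM. For Ihh these were Foxa2 (0.0798), Phf6 (0.0798) and Vav3 (0.0841). Ptch1 was closest to Parp6 (0.0514), the chondrocyte gene Cnmd (0.055) and Rab4a (0.0594). Hhip was closest to Zfp317 (0.0452), Rmdn1 (0.0627) and Rusc2 (0.0832). Each of these 9 genes was fitted higher in CKO, with log2 fold changes from 0.335 to 0.638. That direction follows from how they were picked, by likeness over the same libraries to genes higher in CKO, so nothing is read from it.

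**Figure D5:**
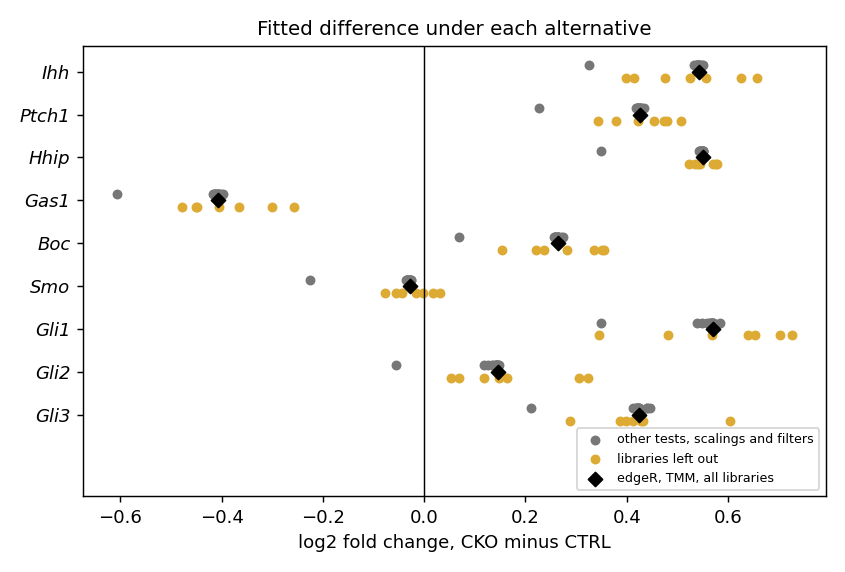
Log2 fold change (CKO minus CTRL) of each Hedgehog gene in the edgeR fit (black), under other tests, scalings and filters (grey) and with 1 or 2 libraries left out (yellow). Hhip stays between 0.35 and 0.58 and Gas1 between -0.61 and -0.26, the far grey points being the scaling to chondrocyte markers; Smo and Gli2 have points on both sides of 0.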

How the data were processed

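The main tests used the authors' deposited table of raw, whole read counts for 55401 Ensembl genes. The submitters' processing notes list GRCm38, DESeq2 1.30.1, R 4.0.5, featureCounts 2.0.1, HISAT2 2.2.1 and FastQC 0.11.9; settings and strand use are not given there. The authors' other deposited file is a size-factor-normalized signal for 23239 genes. Whole reads came back from 100% of its non-zero values (tolerance 0.001 reads), 0 of them different from the counts, and edgeR on them called 1 gene. Groups follow the sample titles. Symbols matched 55141 identifiers, and coordinates and exon lengths are from GENCODE M21 (GRCm38).

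filterByExpr left 16260 genes. After TMM scaling they were fitted in edgeR 4.0.16 (R 4.3.3; glmQLFit, then glmQLFTest) on group alone (4 residual degrees of freedom), with Benjamini-Hochberg adjustment over all of them and a threshold of 0.05. The SE is the size of the fold change over the square root of F. Libraries of 1 group differed beyond sampling noise (chi-square per degree of freedom 31.4 to 36.5), so none was taken as a duplicate. Scripts were tested on simulated counts. The 9 genes and all lists were chosen with earlier results of these data known. Named genes are the 9, Scin, in each pathway list the 3 smallest p-values and the 2 most abundant per length, and the 3 nearest profiles of Ihh, Ptch1 and Hhip. Shh, Dhh, Pthlh, Col10a1, Acan, Lep, Cilp, Clu, Abi3bp, Prg4, Ibsp, Mmp13, Chad and Col2a1 were added after their values were seen. So were Matn1, Matn3, Col3a1, Thy1, Xist, Ddx3y, Eif2s3y, Kdm5d and Uty. A gene that the rule takes is not reported here. Alternatives were DESeq2 1.42.0, limma-voom and limma-trend (limma 3.58.1, log2 of the deposited signal plus 1), other scalings and filters, robust dispersion, a replicate block and leaving out each library. Added after seeing the data were 3 more: DESeq2 limited to the edgeR genes, recovered reads, and leaving out CTRL2 and CKO3 together.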

Additional observations from a re-analysis of the deposited data

How the results depend on the processing

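The number of the 9 Hedgehog genes past the threshold was 0 in edgeR and in every alternative except DESeq2, which passed 3, and DESeq2 limited to the edgeR genes, chosen after the data were seen, which passed 4 (Hhip, Ihh, Gas1 and Ptch1) and 1 other pathway gene, Mef2c. Genes past the threshold in all numbered 91 and 85 in those runs, 3 without a low-count filter (Scin, Mcm6 and Trim10), and 1 to 2 with single libraries left out, the second being Gm7292 without CTRL3. Leaving out 1 library at a time gave Scin a log2 fold change of -2.73 to -2.5. With CTRL2 and CKO3 both left out, chosen after the data were seen, 0 genes passed and Scin stood at -2.56 (edgeR adjusted p = 0.0536); this alternative has fewer samples. Ihh, Ptch1, Hhip, Gli1, Gli3, Gas1 and Boc kept their direction in all 20 alternatives, which reuse the same libraries and are not independent. The recovered reads equal the counts, so that alternative repeats the main fit. With single libraries left out Smo ranged from -0.077 (without CTRL1) to 0.017 (without CKO3), and it was 0.032 without CTRL2 and CKO3. Scaled to chondrocyte markers, Smo was at -0.23 and Gli2 turned to -0.055. This scaling changes the library factors for every gene alike, and the median of all genes shifted by -0.20. Why the markers lay higher in CKO was not tested. Groups did not overlap for 6 of 9 genes in the main fit, where 12.3% of all tested genes did not, and for 5 with that scaling. The count was 6 to 8 with single libraries left out and 8 without CTRL2 and CKO3. Groups of fewer libraries separate more easily for any gene. The share over all genes was not taken under these alternatives, so nothing is read from their counts. Low counts limit Gli1, at 257 to 647 reads per library.

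The labels number the samples 1 to 3 in each group without saying what a number shares. Same-numbered libraries had deviations from their group means that correlated at -0.0193, 0.0712 and 0.0235 across genes. CTRL2 correlated best with CKO2 and CTRL3 with CKO3, while CTRL1 correlated best with CKO3 (0.0503), not CKO1. With the replicate block, 0 of the 9 and 1 gene in all passed, and Hhip had a log2 fold change of 0.55 (edgeR adjusted p = 0.817).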
